A study of Mus musculus with 7 samples.

Results

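The genes described here are 10 genes of the ovarian surface epithelium, the layer of mesothelial cells that covers the ovary. They are *Upk3b*, *Upk1b*, *Msln*, *Krt7*, *Krt8*, *Krt18*, *Krt19*, *Lrrn4*, *Muc16* and *Wt1*. They were chosen by name, from what is known of mesothelium and ovarian surface epithelium, out of 52230 genes summed from the transcripts in the files. Earlier results of these data were known when these genes and the lists below were chosen, so counts over them are descriptions. All 10 passed the filter on low counts and were among the 19233 genes tested.

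The study asked how the progesterone receptor (PGR) acts in the compartments of the ovary around ovulation. The libraries were made by stranded mRNA-seq from stromal tissue, the part of the ovary that remained after follicles had been punctured to release granulosa cells. There were 4 wildtype (WT, PGR +/+) and 3 knockout (KO, PGR -/-) libraries of the PRKO line (allele Pgrtm1Bwo), a constitutive disruption of *Pgr* that is not limited to any cell type. All mice were immature females of 21 to 27 days that received 5 IU PMSG and, 44 h later, 5 IU hCG, and ovaries were taken 8 h post-hCG. Each library held tissue pooled from 3 mice, so the spread between libraries is a spread between pools. Replicate numbers are those of the labels, 1 to 4 for WT and 2 to 4 for KO.

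The surface epithelium derives from the coelomic epithelium of the embryonic gonad and shares its genes with the mesothelium of the peritoneum. Its cells are held together by a cytoskeleton of simple epithelial keratins, in which the type II keratins 7 and 8 pair with the type I keratins 18 and 19. Their free face carries uroplakins, mesothelin and the large membrane mucin MUC16, a ligand of mesothelin. At ovulation the surface cells over the rupturing follicle are lost, and the neighbouring cells close the wound. The layer is thin, and it contributes a small part of the RNA of a whole ovary from which granulosa cells have been removed.

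Each library had between 47.4 M and 63.4 M reads assigned to transcripts. *Pgr* itself was measured at 19.5, 31, 21.5 and 16.8 CPM in WT and at 6.13, 6.52 and 7.56 CPM in KO, where CPM is the read count scaled to library size with TMM factors and libraries follow in the order of their numbers. The log2 fold change (logFC) of *Pgr*, KO over WT, was −1.72 (SE 0.20, adjusted p = 0.0544, edgeR's quasi-likelihood test with Benjamini–Hochberg adjustment over 19233 genes). A gene was called when its adjusted p was at most 0.05 and its logFC at least 0.5 in size.

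To compare genes with each other, levels were taken per transcript length as TPM. *Wt1* stood at the top with 39.5 ± 3.55 TPM (SD, n = 7 libraries), followed by *Krt8* with 9.94 ± 2.39 TPM and *Msln* with 8.13 ± 2.17 TPM. *Krt19* (6.0 ± 2.93 TPM), *Krt18* (5.43 ± 2.2 TPM) and *Upk3b* (4.86 ± 2.45 TPM) came next, with neighbours that changed places between libraries. *Krt19* lay above *Krt18* in 5 of 7 libraries and *Krt18* above *Upk3b* in 4 of 7. *Upk1b* (1.57 ± 0.863 TPM), *Krt7* (1.35 ± 1.16 TPM), *Muc16* (0.833 ± 0.23 TPM) and *Lrrn4* (0.426 ± 0.155 TPM) were the lowest. Only the steps from *Wt1* to *Krt8*, from *Upk3b* to *Upk1b* and from *Muc16* to *Lrrn4* had the same order in all 7 libraries. Relatives known from other epithelia differed in level. *Muc1* (1.98 TPM) and *Upk1a* (1.01 TPM) were within the range of the 10, while *Upk2*, a uroplakin of the bladder, had at most 1 read in any library, and *Mslnl* at most 6.

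Every one of the 10 genes had a lower fitted level in KO than in WT stromal tissue, with logFC between −1.07 for *Upk3b* and −0.06 for *Wt1*. The median logFC of the 10 was −0.49, beside −0.001 over all genes tested, and 50.3% of all genes tested had a logFC below 0. The 10 directions are not independent, since most of these genes kept close to 1 pattern over the same libraries. None of the 10 was called by edgeR, and 0.0104% of all genes tested were called. *Upk3b* and *Muc16* had an unadjusted p under 0.05 with a lower level in KO, which was true of 5.1% of all genes tested. DESeq2 called 1 of the 10, *Upk3b*, and 0.749% of all genes, while limma-voom called none and gave *Upk3b* alone an unadjusted p under 0.05. In bulk tissue, fewer surface cells and less RNA per surface cell cannot be told apart.

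**Figure D1:**
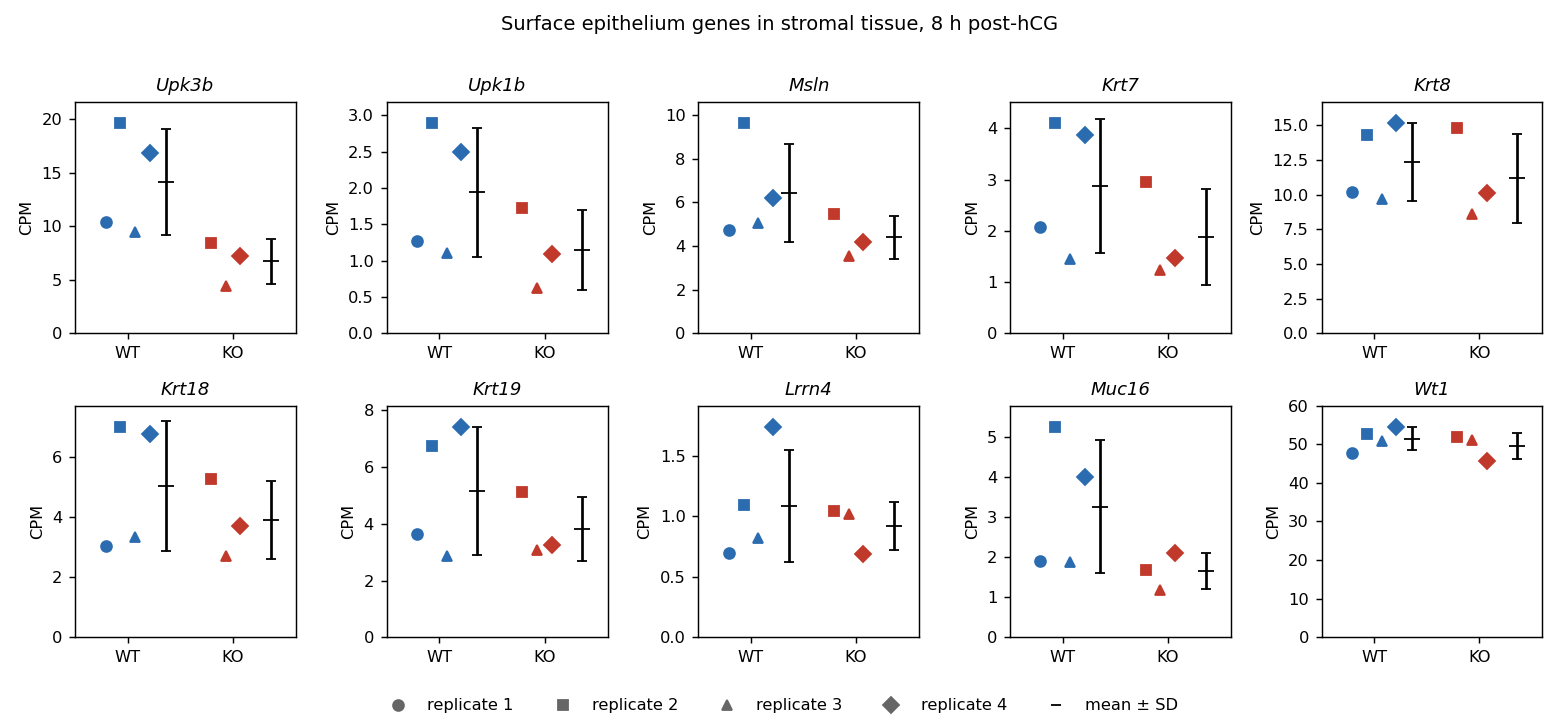
Each panel shows 1 gene, with CPM on a linear y axis that starts at 0 and the genotype on the x axis. Points are single libraries, with marker shape giving the replicate number, and the black bar beside each group is the mean ± SD (n = 4 WT, n = 3 KO). In *Upk3b* all 3 KO points (4.42 to 8.49 CPM) lie below all 4 WT points (9.49 to 19.7 CPM), while in the other 9 genes the groups overlap.

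Uroplakins are membrane proteins known best from the bladder lining. *Upk3b*, a uroplakin of the mesothelium, lies on chromosome 5 of GRCm39 (136067350 to 136075342, plus strand). It was measured at 10.4, 19.7, 9.49 and 16.9 CPM in WT and at 8.49, 4.42 and 7.26 CPM in KO. The highest KO library was below the lowest WT library, a gap found in 5.12% of all genes tested and in no other of the 10. The WT mean was 14.1 ± 4.97 CPM (SD, n = 4) and the KO mean 6.73 ± 2.09 CPM (SD, n = 3), or 47.6% of WT. The logFC was −1.07 (SE 0.30), and edgeR gave it an unadjusted p of 0.00654 and an adjusted p of 0.342. With DESeq2 the adjusted p was 0.0155. Leaving out 1 library at a time moved the logFC between −1.27 and −0.84 and kept the edgeR adjusted p between 0.265 and 0.738. The groups do not overlap, but the WT libraries alone differed by 2.08 times.

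*Upk1b* (chromosome 16, 38591981 to 38620727, minus strand) encodes a tetraspanin that partners type III uroplakins on the membrane. It was measured at 1.27, 2.9, 1.1 and 2.49 CPM in WT and at 1.72, 0.625 and 1.09 CPM in KO, with 30 to 155 reads per library. KO replicate 2 lay above 2 of the 4 WT libraries. The logFC was −0.75 (SE 0.42, adjusted p = 0.648 in edgeR).

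Promoter sequence from RefSeq on GRCm38.p6 was used for 6 of the 10 genes, and the 250 bases before the start are shown for the 2 genes with an unadjusted p under 0.05. PGR binds a palindrome built from the half-site TGTTCT, so this hexamer was searched on both strands and is set in capitals where found.
Upk3b, chr5:136038246-136038495, plus strand: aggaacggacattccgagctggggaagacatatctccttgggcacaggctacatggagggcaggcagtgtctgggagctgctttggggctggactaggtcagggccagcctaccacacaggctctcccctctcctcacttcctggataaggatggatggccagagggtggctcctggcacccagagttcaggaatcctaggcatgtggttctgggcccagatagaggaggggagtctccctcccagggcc
Muc16, chr9:18674604-18674853, minus strand: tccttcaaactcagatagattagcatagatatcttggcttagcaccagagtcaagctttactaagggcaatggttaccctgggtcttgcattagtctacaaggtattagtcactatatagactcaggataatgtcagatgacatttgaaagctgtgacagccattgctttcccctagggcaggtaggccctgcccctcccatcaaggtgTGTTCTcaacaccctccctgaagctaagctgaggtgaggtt
The half-site occurred in *Muc16*, with its first base 41 bases before the start, and in no other of the 6 genes, beside 16.1% of 32851 promoters of this length. The *Upk3b* stretch was 60.8% G and C, and the *Muc16* stretch 46.4%.

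*Muc16* (chromosome 9, 18406745 to 18585826, minus strand) encodes the mucin known as the source of the CA-125 antigen. It lies 9.44 Mb from *Pgr* on the same chromosome, and there linkage to the targeted allele and loss of PGR cannot be told apart. Its expression was 1.9, 5.27, 1.88 and 4.0 CPM in WT and 1.68, 1.19 and 2.1 CPM in KO. KO replicate 4 lay above WT replicates 1 and 3, so the groups overlap. The WT mean was 3.26 ± 1.67 CPM (SD, n = 4) and the KO mean 1.66 ± 0.459 CPM (SD, n = 3), which gives a logFC of −0.97 (SE 0.39, unadjusted p = 0.0365, adjusted p = 0.517 in edgeR). Without WT replicate 2, its highest library, the logFC was −0.64 (unadjusted p = 0.101 in edgeR). With the counts offset by transcript length it was −0.34, and on log2(TPM + 0.1) it was −0.23.

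Salmon divided the reads of *Muc16* between transcripts of very different length. The long *Muc16* transcripts, of 7700 and 25437 bases, together stood at 0.213, 0.734, 0.244 and 0.477 TPM in WT and at 0.184, 0.126 and 0.297 TPM in KO. The short ones, of 1035 and 1099 bases, were at 0.569, 0.143, 0.403 and 0.834 TPM in WT and at 0.675, 0.533 and 0.4 TPM in KO. WT replicate 2 had the most long and the least short transcript. The long transcripts took 19.1% to 83.6% of the gene's TPM, and at 57 to 265 reads per library over a transcript of this length the split is uncertain.

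*Msln* (chromosome 17, 25967312 to 25985619, minus strand) encodes mesothelin, a protein anchored to the mesothelial surface that binds MUC16. It was measured at 4.75, 9.66, 5.07 and 6.22 CPM in WT and at 5.47, 3.54 and 4.19 CPM in KO. KO replicates 3 and 4 lay below all WT libraries and KO replicate 2 between them. The logFC was −0.54 (SE 0.26, unadjusted p = 0.0675, adjusted p = 0.581 in edgeR), and without WT replicate 2 it was −0.28. A retained-intron transcript of 590 bases carried more of the level of *Msln* than any other single transcript did on average, with 36.4% to 69.5% of its TPM. It stood at 3.79, 5.67, 4.88 and 2.81 TPM in WT and at 3.93, 4.42 and 4.02 TPM in KO, means of 4.29 ± 1.25 TPM (SD, n = 4) and 4.13 ± 0.259 TPM (SD, n = 3). The 4 coding transcripts together stood at 2.49, 6.15, 2.79 and 4.03 TPM in WT and at 3.08, 1.74 and 2.45 TPM in KO. The coding transcripts thus had their 2 highest values in WT replicates 2 and 4, and the retained-intron transcript was lowest in WT replicate 4. With protein-coding transcripts only, the logFC of *Msln* was −0.67 (SE 0.32, adjusted p = 0.566 in edgeR). With the counts offset by transcript length it was −0.33, and on log2(TPM + 0.1) it was −0.26.

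**Figure D2:**
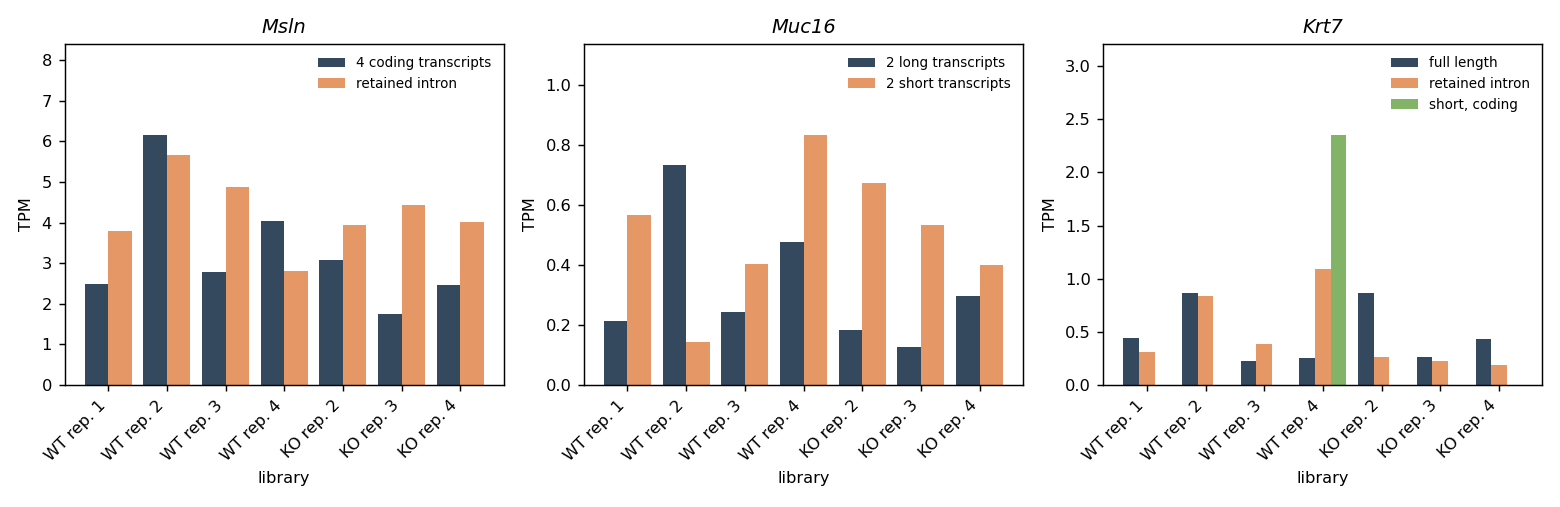
Bars give the TPM that Salmon assigned to groups of transcripts of *Msln*, *Muc16* and *Krt7* in each of the 7 libraries (x axis), with no error within a library. The *Msln* retained-intron transcript runs between 2.81 and 5.67 TPM, the long *Muc16* transcripts peak at 0.734 TPM in WT replicate 2, and the short coding *Krt7* transcript has a value (2.35 TPM) in WT replicate 4 alone.

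Keratins form the intermediate filaments of these cells. *Krt8* (chromosome 15, 101905133 to 101912917, minus strand) and *Krt18* (chromosome 15, 101936615 to 101940462, plus strand) are neighbours that encode a type II and type I keratin pair of simple epithelia. *Krt8* was measured at 10.2, 14.3, 9.68 and 15.2 CPM in WT and at 14.8, 8.63 and 10.1 CPM in KO, and its KO mean was 90.6% of the WT mean. *Krt18* was at 3.02, 7.01, 3.33 and 6.77 CPM in WT and at 5.28, 2.71 and 3.71 CPM in KO. KO replicate 2 lay among the upper WT values for *Krt8* and between the upper and the lower ones for *Krt18*. The logFC was −0.14 (SE 0.22, adjusted p = 0.894 in edgeR) for *Krt8* and −0.37 (SE 0.35, adjusted p = 0.807 in edgeR) for *Krt18*.

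*Krt19* (chromosome 11, 100031636 to 100039491, minus strand), the smallest type I keratin, was measured at 3.63, 6.76, 2.86 and 7.43 CPM in WT and at 5.11, 3.06 and 3.24 CPM in KO. It gave a logFC of −0.44 (SE 0.35, adjusted p = 0.758 in edgeR). *Krt7* (chromosome 15, 101308924 to 101328194, plus strand), a keratin of ducts and serosal linings, was at 2.08, 4.11, 1.45 and 3.86 CPM in WT and at 2.95, 1.23 and 1.47 CPM in KO. Its logFC of −0.60 (SE 0.42, adjusted p = 0.725 in edgeR) became 0.02 when only protein-coding transcripts were counted. With the counts offset by transcript length it was −1.11, and on log2(TPM + 0.1) it was −0.77. Salmon put the reads of *Krt7* on a full-length transcript of 4094 bases, a retained-intron transcript of 3563 bases and, in WT replicate 4 alone, a short coding transcript of 642 bases. A further transcript of 351 bases took 0.156 TPM in WT replicate 1, 0.139 TPM in WT replicate 4 and 0.183 TPM in KO replicate 3. The full-length transcript stood at 0.448 ± 0.294 TPM (SD, n = 4) in WT and 0.522 ± 0.313 TPM (SD, n = 3) in KO, and the retained-intron transcript at 0.656 ± 0.37 TPM in WT and 0.227 ± 0.0385 TPM in KO. The means of these transcripts thus differ between genotypes in opposite directions, the first by less than its SD.

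Over the 50 annotated keratin genes whose symbol is Krt and a number with no letter after it, 15 were tested and 9 had no read in any library. Of the 15, which include the 4 described above, 5 had a lower and 10 a higher level in KO, with a median logFC of 0.17. None was called by edgeR, DESeq2 or limma-voom, and edgeR gave 1 an unadjusted p under 0.05. This was *Krt79*, a keratin of skin appendages, with a logFC of 0.71 (SE 0.28, unadjusted p = 0.0293, adjusted p = 0.489 in edgeR). Such a p with a higher level in KO was found in 739 of the 19233 genes tested.

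*Lrrn4* (chromosome 2, 132705985 to 132735941, minus strand) encodes a neuronal leucine-rich repeat protein that also marks mesothelium. It had 36 to 108 reads per library and was measured at 0.692, 1.09, 0.816 and 1.74 CPM in WT and at 1.04, 1.02 and 0.69 CPM in KO. The logFC was −0.25 (SE 0.33, adjusted p = 0.864 in edgeR), and it was 0.09 without WT replicate 4. Among 13 relatives of the surface genes (uroplakins, mesothelin-like, membrane mucins and the *Lrrn* family), 6 were tested, 2 lower and 4 higher in KO, with a median logFC of 0.07. *Lrrn1*, a paralogue of *Lrrn4*, was at 89.1, 141, 148 and 183 CPM in WT and at 41.9, 45.6 and 80.7 CPM in KO, with no overlap. Its logFC of −1.32 (SE 0.28) had an adjusted p of 0.226 in edgeR and 0.0231 in DESeq2. Within the list it was the 1 gene with an unadjusted p under 0.05 in edgeR, beside 5.1% of all genes tested with such a p and lower in KO. *Lrrn2* and *Lrrn3* each had a logFC of 0.07. *Muc13* and *Muc1*, which encode membrane mucins, had logFC of −0.54 and 0.19 with unadjusted p of 0.106 and 0.204 in edgeR.

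*Wt1* (chromosome 2, 104956625 to 105003961, plus strand) encodes the Wilms tumour zinc finger factor of the coelomic epithelium, which somatic cells of the gonad keep beyond the surface layer. Its expression was 47.7, 52.6, 50.9 and 54.6 CPM in WT and 52, 51 and 45.6 CPM in KO. The KO mean was 96.3% of the WT mean, and the logFC was −0.06 (SE 0.068, adjusted p = 0.855 in edgeR). Its SE was the smallest of the 10, and its WT libraries differed by 1.15 times, so among these genes it was the 1 that varied least.

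*Wt1* is made in splice forms that differ by 9 bases at the end of an exon between the last zinc fingers, at chr2:105000355-105000363 of GRCm39, plus strand. These bases add the amino acids known as KTS, and forms with and without them are known to act differently in gonads. They are shown in capitals in the stretch around the junction, as read from GENCODE transcripts.
Wt1, with the 9 bases: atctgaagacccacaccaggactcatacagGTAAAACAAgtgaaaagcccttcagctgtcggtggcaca
Wt1, without them: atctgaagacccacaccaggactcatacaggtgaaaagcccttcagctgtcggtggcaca
Of the TPM on the 6 coding *Wt1* transcripts, those with the 9 bases took 61%, 53.5%, 53.7% and 54.7% in WT and 61%, 58.6% and 54.4% in KO. The means were 55.7% ± 3.57 (SD, n = 4) and 58% ± 3.35 (SD, n = 3), with overlapping groups. Transcripts with the alternative exon of 51 bases (chr2:104974487-104974537, plus strand) took 25.6% ± 2.79 in WT and 30.5% ± 3.93 in KO, with overlap at 28.9% in WT replicate 3 and 27.5% in KO replicate 4. These transcripts also differ at their ends, so the shares rest on Salmon's division of reads as a whole and not on the junction alone.

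Over the libraries, the surface genes kept close to 1 pattern, and this pattern did not follow genotype alone. WT replicates 2 and 4 were both above WT replicates 1 and 3 for 10 of the 10 genes, an order found in 22% of all genes tested. This order was read from the values of these same genes, so the comparison is a description and not a test. The highest library was WT replicate 2 for 6 genes and WT replicate 4 for 4. The lowest was KO replicate 3 for 7 genes, KO replicate 4 for 2 and WT replicate 3 for 1. Within KO, replicate 2 was above the others for 9 of the 10. Most of the genes varied widely between libraries of 1 genotype. Their median coefficient of variation was 42.9% in WT and 29.3% in KO, beside 9.27% and 8.27% over the 10246 genes between 1.01 and 50.6 CPM, the range of the 10. *Wt1* was below that, with 5.73% in WT and 6.92% in KO.

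**Figure D3:**
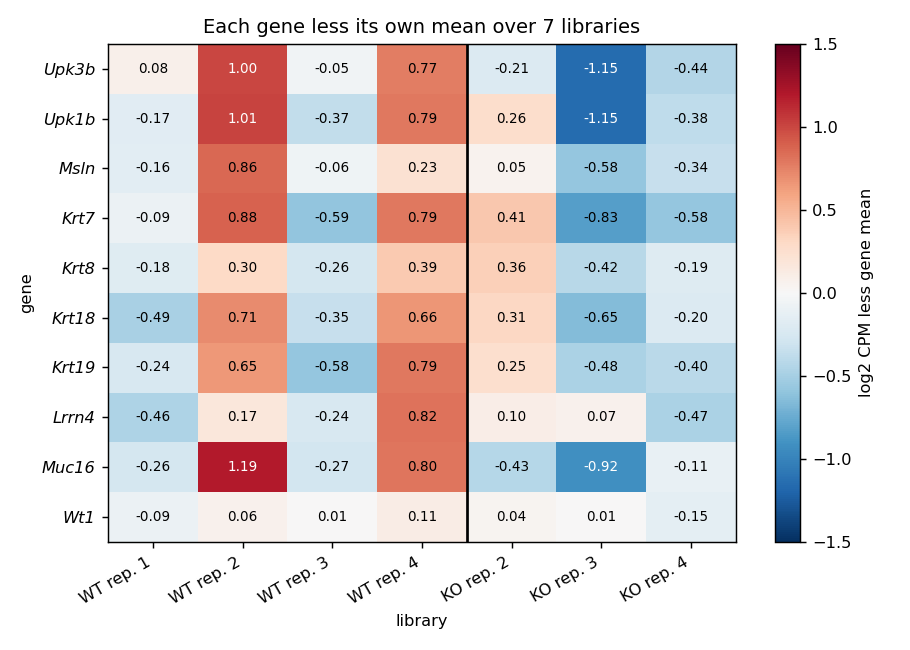
Rows are the 10 genes, columns the 7 libraries, and each cell gives the gene's log2 CPM in that library less its own mean over the 7, with red for above and blue for below. The columns of WT replicates 2 and 4 are above the mean in every row, up to 1.19 for *Muc16*, and KO replicate 3 goes down to −1.15 for *Upk3b* and *Upk1b*, while the *Wt1* row stays between −0.15 and 0.11.

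Averaged over the 7 genes used to describe the surface layer (the 10 without *Krt8*, *Krt18* and *Wt1*, which other ovarian cells also express), log2 CPM less each gene's mean was −0.18, 0.82, −0.31 and 0.71 in WT and 0.06, −0.72 and −0.39 in KO. WT replicates 1 and 3 thus lay within the range of the KO libraries. Pearson's r over the 7 libraries between a gene and the mean of these 7, itself left out, was highest for *Upk1b* (0.97), *Krt7* (0.95) and *Krt18* (0.95), and 0.89 to 0.93 for *Krt19*, *Upk3b*, *Msln*, *Muc16* and *Krt8*. It was 0.63 for *Wt1* and 0.59 for *Lrrn4*. These r are descriptions, since the 7 points share their libraries and the differences in tissue content between them.

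Although the surface genes went together, their ratios within a library were not constant. The TPM ratio of *Upk3b* to *Krt18* was 1.28, 1.05, 1.06 and 0.93 in WT and 0.601, 0.608 and 0.73 in KO, so the groups did not overlap. The ratio of *Upk1b* to *Krt18* was 0.335, 0.368, 0.262 and 0.28 in WT and 0.268, 0.199 and 0.242 in KO, with overlap. For *Msln* to *Krt18* the means were 1.63 ± 0.516 (SD, n = 4) and 1.6 ± 0.34 (SD, n = 3). For *Upk3b* to *Krt19* the groups overlapped, at 0.9, 0.941, 1.34 and 0.73 in WT and 0.539, 0.519 and 0.929 in KO. For *Upk3b* to *Upk1b* they also overlapped, at 3.83, 2.84, 4.03 and 3.32 in WT and 2.24, 3.06 and 3.02 in KO. These are descriptions, and 7 ratios were computed, with overlap in all but *Upk3b* to *Krt18*.

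The genes outside the 10 whose log2 CPM was most like the mean of the 7 surface genes over the 7 libraries, among 14874 genes with a mean of at least 1 CPM, were *Ankra2*, *Dmkn*, *Adamts16*, *Lipo3*, *9130008F23Rik*, *Traf3ip2*, *Gprc5b*, *Ppl*, *Sulf1* and *Eaf1*, with r from 0.961 to 0.973. Some of them varied as widely as the surface genes. *Dmkn*, which encodes dermokine, a secreted protein of epithelia, ranged from 1.1 to 3.74 CPM, and *Ppl*, which encodes the desmosomal protein periplakin, from 1.44 to 4.21 CPM. Others varied little, such as *Ankra2* between 18.7 and 21.7 CPM.

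A second list held 16 other genes known from mesothelium or ovarian surface epithelium, many of which are also expressed by other ovarian cells. All 16 were tested, 12 with a lower and 4 with a higher level in KO, and their median logFC was −0.26. None was called by edgeR or limma-voom. In edgeR 7 had an unadjusted p under 0.05, all lower in KO, which was true of 5.1% of all genes tested. DESeq2 called 2, *Nkain4* (adjusted p = 0.0489) and *Pkhd1l1* (adjusted p = 0.0496). *Nkain4*, a membrane protein that interacts with the sodium pump, was at 1.73, 3.1, 2.23 and 2.52 CPM in WT and at 1.7, 1.04 and 1.1 CPM in KO, with a logFC of −0.90 (SE 0.25, adjusted p = 0.324 in edgeR). *Pkhd1l1*, a large membrane protein related to fibrocystin, was at 3.21, 5.58, 2.45 and 4.53 CPM in WT and at 1.77, 2.02 and 2.38 CPM in KO, with a logFC of −0.94 (SE 0.27, adjusted p = 0.355 in edgeR). In both genes the groups did not overlap, as also in *Podxl*, *Bcam* and *Pdpn*, a gap found in 5.12% of all genes tested.

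The list was not uniform in its pattern over the 7 libraries. *Gpm6a* (r = 0.95 with the mean of the 7 surface genes), *Ildr2* (0.92), *Nkain4* (0.86) and *Pkhd1l1* (0.82) were the 4 of 16 with r above 0.8, beside 2.36% of the genes ranked. The 3 genes with the lowest p had r of 0.38 or less. *Podxl*, which encodes the sialomucin podocalyxin of endothelium and mesothelium, was at 121, 123, 126 and 110 CPM in WT and at 88.7, 92.1 and 98.4 CPM in KO (logFC −0.36, SE 0.065, adjusted p = 0.162 in edgeR, r = 0.38). *Bcam*, a laminin receptor, had a logFC of −0.23 (adjusted p = 0.285) and *Pdpn*, podoplanin, a logFC of −0.40 (adjusted p = 0.313), both by edgeR. *Aldh1a1*, a retinaldehyde dehydrogenase that was the most abundant of the list by TPM, was at 702, 460, 675 and 325 CPM in WT and at 284, 389 and 308 CPM in KO. The logFC of *Aldh1a1* was −0.73 (SE 0.25, unadjusted p = 0.0184, adjusted p = 0.428 in edgeR). Its lowest WT libraries were replicates 2 and 4, the reverse of the surface genes. *Ezr*, which encodes the microvillar linker ezrin, had a logFC of 0.09 (SE 0.068). *Calb2* and *Lgr5*, also known from surface or mesothelial cells, had logFC of 0.00 (SE 0.31) and −0.36 (SE 0.50). With 6 to 15 reads per library, *Calb2* was too low for its logFC to show whether it differed.

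**Figure D4:**
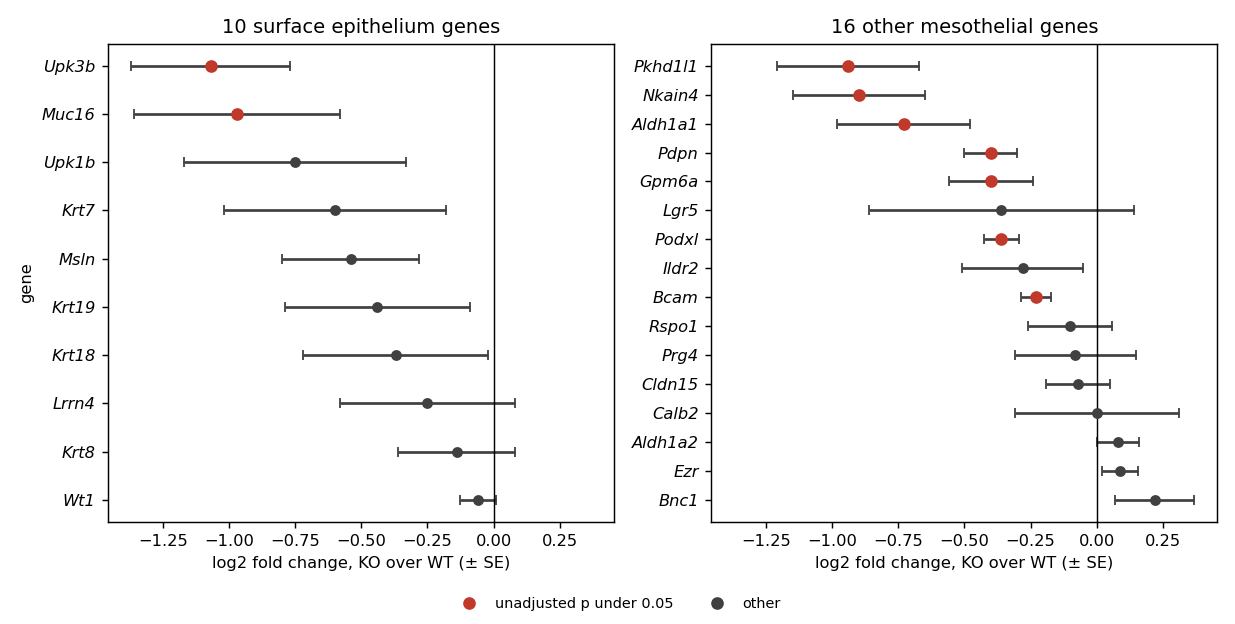
The x axis gives the logFC of KO over WT with its SE from edgeR's quasi-likelihood fit (n = 4 WT, n = 3 KO), for the 10 surface epithelium genes (left) and 16 other mesothelial genes (right), and red marks an unadjusted p under 0.05. All 10 points on the left lie below 0, from −1.07 to −0.06, and on the right 12 of 16 do.

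Among 16 genes of epithelial junctions, 15 were tested and 10 had a lower level in KO, with a median logFC of −0.17. Of these, 5 had an unadjusted p under 0.05 in edgeR, all lower in KO, which was true of 5.1% of all genes tested. None was called by edgeR, DESeq2 or limma-voom. *Cldn1*, which encodes the tight junction protein claudin-1, was at 26.7, 29, 24.7 and 26.5 CPM in WT and at 20.5, 19.4 and 17 CPM in KO (logFC −0.50, SE 0.082, adjusted p = 0.141 in edgeR). *Cdh3*, P-cadherin, had a logFC of −0.45 (adjusted p = 0.239) and *Pkp2*, plakophilin-2 of desmosomes, a logFC of −0.32 (adjusted p = 0.342), both by edgeR and both with no overlap between groups. The largest difference was that of *Dsc2*, a desmosomal cadherin, with a logFC of −0.88 (unadjusted p = 0.0141 in edgeR) and no overlap. Such a gap was found in 5.12% of all genes tested. *Jup*, plakoglobin, was the remaining gene of the 5, with a logFC of −0.17 (unadjusted p = 0.0454 in edgeR). *Tjp1* and *Cdh2*, which with *Jup* were the most abundant of the list, had logFC of −0.05 and 0.10. *Epcam*, an epithelial adhesion molecule, was at 2.02, 3.38, 1.84 and 4.24 CPM in WT and at 2.97, 2.92 and 2.88 CPM in KO, a logFC of 0.02 (SE 0.28). Its WT libraries had the same order as the surface genes, and its KO libraries lay between them.

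Of 8 transcription factors of the coelomic epithelium and gonad beside *Wt1*, all were tested, 5 lower and 3 higher in KO, with a median logFC of −0.09 and none called by edgeR, DESeq2 or limma-voom. *Tcf21*, a factor of mesenchyme and of ovarian stroma, was the 1 gene with an unadjusted p under 0.05 in edgeR (logFC −0.39, SE 0.089, adjusted p = 0.251). Such a p with a lower level in KO was found in 5.1% of all genes tested. *Nr5a1*, steroidogenic factor 1, had a logFC of 0.01 (SE 0.051), and *Gata4* and *Emx2*, factors of the early gonad, each had a logFC of 0.14.

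Markers of other cells that the tissue could hold were read in the same libraries. For 8 oviduct genes, an epithelium that shares keratins and *Wt1* with the surface layer, summed TPM was 14.3 to 20.8 in WT and 16.1 to 18.5 in KO. Most of this was *Sox17*, which endothelium expresses too, while *Pax8* was at 0.104 to 0.238 CPM, *Foxj1* at 0.135 to 0.497 CPM, and *Ovgp1*, oviductin, at 2.11 to 3.46 CPM. No oviduct gene was called by edgeR, DESeq2 or limma-voom, and none had an unadjusted p under 0.05. Summed TPM of 12 granulosa cell genes, led by *Inha* and *Serpine2*, was 3470, 2720, 3420 and 2510 in WT and 3160, 3160 and 4200 in KO. For 6 fibroblast genes, led by *Col3a1* and *Col1a2*, it was 3840, 2790, 3510 and 2860 in WT and 2990, 3310 and 3320 in KO. Both sums were lowest within WT in replicates 2 and 4, where the surface genes were highest. Most of the granulosa sum was *Inha*, and the list was not uniform. *Amh*, *Inhba* and *Cyp19a1* were also lowest within WT in replicates 2 and 4. In contrast, *Foxl2* and *Nr5a2* had their highest WT levels in replicate 4, at 45.9 and 101 TPM. The 5 theca genes, led by *Cyp11a1* and *Star*, were all lower in KO, beside 50.3% of all genes tested with a logFC below 0. The median logFC of the theca genes was −0.49, the same median as that of the 10 surface genes. Summed TPM of the theca genes was 5640, 6810, 6770 and 7740 in WT and 5080, 5620 and 6190 in KO. Within WT this sum, like *Cyp11a1* and *Star*, was highest in replicates 2 and 4. *Cyp17a1* and *Insl3* were lowest there, and *Lhcgr* had neither order. Sums were for 5 endothelial genes, led by *Emcn* and *Cdh5*, 307 to 335 and 295 to 322, and for 5 leukocyte genes, led by *Lyz2* and *Cd68*, 112 to 134 and 102 to 137. No gene of these 5 lists was called by edgeR, DESeq2 or limma-voom. Unadjusted p under 0.05 in edgeR were 2 for the endothelial list and 1 (*Star*, logFC −0.51) for the theca list. All were lower in KO, beside 5.1% of all genes tested. The part of these differences in tissue content in the levels of the surface genes was not tested.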

How the data were processed

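Groups and replicate numbers came from the sample labels. The authors deposited Salmon estimated counts and TPM per transcript for each library, made with GENCODE M26 on GRCm39. The Salmon version and its library type setting are not given in the sources used here. Transcripts were matched by Ensembl ID to GENCODE M39 on GRCm39 (137570 of 139225, with 99.37% to 99.4% of the reads), and counts were summed per gene and rounded. Reads of any antisense gene that overlaps 1 of the 10 genes, such as *Wt1os* at *Wt1*, could be told apart only if that setting used strand.

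KO was tested against WT with edgeR 4.0.16 in R 4.3.3 (filterByExpr, TMM, glmQLFit with legacy=TRUE, glmQLFTest, two-sided). The SE is the absolute logFC divided by the square root of F. DESeq2 1.42.0 (the tool of the study) and limma 3.58.1 were alternatives. The common biological coefficient of variation between libraries was 0.127. The code was tested on simulated data.

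The 10 genes and the lists were chosen with earlier results of these data known. The rule named all 10 genes, the genes of each other list that were called, had the 3 lowest p or the 3 highest mean TPM (the 2 highest for cell type lists), and the 10 genes most like the surface pattern. Other genes named were chosen after their values were seen. Same-numbered WT and KO libraries were checked for pairing. Their deviations from the group means correlated at −0.051, 0.077 and 0.049 over the 2000 most variable genes, so no block was used. The 10 genes were not checked on their own.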

Additional observations from a re-analysis of the deposited data

Results flagged for a closer look

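Of 41 sets of WT values tested for a library far from the other 3, 2 stood apart. Chance flags about 1 in 20 such sets. The short coding transcript of *Krt7* (642 bases) was at 2.35 TPM in WT replicate 4 and at 0 in the other 6 libraries. The share of coding *Wt1* TPM on transcripts with the 9 bases was 61.0% in WT replicate 1, beside 53.5% to 54.7% in the other WT libraries. KO replicate 2 had the same share of 61.0%.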

How the results depend on the processing

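Over 17 alternatives, 164 of 170 values of the 10 genes kept their direction and their side of the thresholds. *Upk3b* was called with DESeq2 (logFC −1.07, adjusted p = 0.0155) and with a replicate block (logFC −1.18, adjusted p = 0.0152 in edgeR), so each called 1 of the 10 genes. The sign turned for *Krt7* with protein-coding transcripts only, an alternative added after the data were seen (0.02), *Krt8* without KO replicate 3 (0.02), *Lrrn4* without WT replicate 4 (0.09) and *Wt1* without KO replicate 4 (0.00). Leaving out each library in turn called none of the 10 in edgeR, with logFC from −1.27 to −0.84 for *Upk3b*, −1.17 to −0.46 for *Upk1b*, −0.73 to −0.28 for *Msln*, −1.09 to −0.38 for *Krt7*, −0.40 to 0.02 for *Krt8*, −0.65 to −0.16 for *Krt18*, −0.71 to −0.20 for *Krt19*, −0.41 to 0.09 for *Lrrn4*, −1.17 to −0.64 for *Muc16* and −0.09 to 0.00 for *Wt1*.

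Over all genes, edgeR called 2. DESeq2 called 144, the replicate block 26, no low-count filter 36, at least 10 counts in every library 6, log2(TPM + 1) in limma 1, protein-coding transcripts only 7, and an adjusted p of at most 0.1 called 9. Leaving out each library gave 1 to 4. Of the 16 other mesothelial genes, DESeq2 called 2. The cause was not tested. The labels name no pairing, and 0 of 3 KO libraries correlated best with the WT library of the same number. Whether libraries of the same number share anything more cannot be told from the labels or from these correlations. WT replicate 3 was below WT replicates 2 and 4 for 10 of the 10 genes. KO replicate 3 was below KO replicates 2 and 4 for 8 of the 10. Whether this reflects pairing was not tested. With the block, *Upk3b* had an SE of 0.083. With it, 6 of the 10 genes had an unadjusted p under 0.05 in edgeR, beside 2 without it. Replicate 1 exists in WT alone, so with the block the difference rests on replicates 2 to 4. Without WT replicate 1 and without a block, 3 of the 10 genes had such a p. The share over all genes with the block was not counted.

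Depth limits 2 genes most: *Upk1b* had 30 to 155 reads per library and *Lrrn4* 36 to 108, where counting error adds to the spread between libraries.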
